A study of Mus musculus with 48 samples.

Results

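The gene expression programs of E15.5 acinar cells and E15.5 progenitors from mouse pancreas were compared on Affymetrix expression arrays, with 3 arrays of acinar cells set against 3 arrays of progenitors. These were 6 of the 48 arrays of a series that profiled 13 pancreatic populations, and they were chosen by their sample titles alone. Both populations were sorted from dissociated pancreata of E15.5 embryos that carried a Neurog3-eGFP transgene on a wild-type background, pooled over embryos. Both gates took cells that lacked red cell and leukocyte surface antigens and the Neurog3-driven green fluorescence and that were positive for CD133 and CD24. The gates differed in CD49f, the integrin alpha 6 subunit, which was high on the acinar cells and low on the progenitors. The acinar cells were also collected in a buffer that held EGTA and less serum than the buffer of the progenitors, so that gate and collection buffer cannot be told apart. The study calls the replicates of a population biological replicates from replicate cell isolations, while the labels do not say which embryos or sorts each came from. The p-values use the spread between arrays within populations, estimated over all 48 arrays of the series, and this spread may be partly technical. The 48 arrays ranged in age from E11.5 to 8 to 12 weeks and included 4 arrays of E15.5 Neurog3-null mutant cells.

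By mid-gestation the branching pancreatic epithelium is divided into tips and trunk. Tip cells that keep PTF1A, a basic helix-loop-helix factor, become acinar cells, and there PTF1A acts in the PTF1 complex, in which the RBPJ subunit is exchanged for the pancreas-restricted RBPJL as the cells start to make digestive enzymes. Trunk cells express SOX9, NKX6-1 and Notch pathway genes and give rise to ducts and, through a transient burst of NEUROG3, to endocrine cells.

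Levels are given as log2 RMA values, the deposited normalized signal of a probe set on a log2 scale, and a difference of 1 is therefore a doubling of signal. A gene was read from its probe set with the highest mean over all 48 arrays. It was called when limma, fitted over all 48 arrays, gave a Benjamini-Hochberg adjusted p below 0.05 together with a difference of at least 1. Of 32078 probe sets tested, 1307 were called higher (4.07%) and 1868 lower (5.82%) in acinar cells than in progenitors. Of 14485 genes, 671 were called higher (4.63%) and 1021 lower (7.05%), and the median difference over all genes was -0.01. Counts of called genes in the lists below are to be read beside these shares. The 3 acinar arrays lay wholly above the 3 progenitor arrays for 21.9% of genes and wholly below them for 25.2%, together 47.1%, so that non-overlap alone is common in this comparison. Pearson correlations across probe sets were 0.98 between acinar arrays, 0.98 to 0.99 between progenitor arrays and 0.93 to 0.96 between the populations.

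The markers of the labels were checked first. Ptf1a read 12.74, 12.46 and 12.83 in acinar arrays, against 11.01, 11.63 and 9.37 in progenitor arrays. Bhlha15, the MIST1 gene of mature acinar secretion, read 12.79, 12.75 and 12.85 in acinar arrays, against 10.87, 11.58 and 9.70 in progenitor arrays. Sox9 read 11.59, 11.37 and 11.57 in acinar arrays, against 12.67, 12.59 and 12.43 in progenitor arrays. Each of the markers was thus separated in the direction of its label, but each was also well above the dim range in the other population. Of the antigens of the gates, Prom1 and Cd24a were close together on these arrays, while Itga6 was higher in acinar cells. Itga6, the CD49f gene, averaged 13.20 in acinar cells and 12.56 in progenitors, a difference of 0.64 that was below the threshold of size. Its other, dimmer probe set differed by 1.48 and passed both thresholds (limma adjusted p = 0.0065). Prom1 differed by 0.20 and Cd24a by -0.12. Since these antigens chose the cells, their values are a description.

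Markers of several other cell types differed between the populations. Of 15 endothelial marker genes, 14 were called higher in acinar cells, and their mean level was 8.61, 9.66 and 9.19 in the acinar arrays, against 5.53, 5.78 and 5.32 in the progenitor arrays. Acinar replicate 2 had the highest endothelial level. Ptprc, the CD45 gene, was between 3.27 and 3.59 in acinar arrays and between 3.37 and 3.85 in progenitor arrays, and the 18 tested macrophage and leukocyte markers averaged 5.67 to 6.14 in acinar arrays and 5.49 to 6.07 in progenitor arrays. Of those 18 genes, C1qa alone was called, 2.35 higher in acinar cells. Of 11 tested erythroid markers Tal1 alone was called, and the beta-globin gene Hbb-b2, which was chosen after its values were seen, read 11.26, 10.45 and 8.64 in acinar arrays, against 5.12, 5.51 and 7.46 in progenitor arrays. The mean of 18 mesenchyme markers was 7.48 to 8.18 in acinar arrays and 7.12 to 8.05 in progenitor arrays. Of these, Acta2, Col1a2, Col3a1 and Dcn, genes of smooth muscle actin and of fibroblast matrix, were called higher in acinar cells (22.2%), by 1.44 to 1.89, and Fn1 (-1.23) and Twist1 (-1.47) were called lower (11.1%). Without acinar replicate 2 none of the 4 higher ones was called (adjusted p of 0.08 to 0.17), and Col1a2, Col3a1 and Dcn were not called either without acinar replicate 3, progenitor replicate 1 or progenitor replicate 3. Of 9 tested neural and Schwann markers, S100b, Sox10, Tubb3 and Elavl4 were called lower in acinar cells (44.4%) and Ret higher (11.1%), with a median of -0.29. Elavl4 was not called on leaving out any of 5 of the arrays (adjusted p of 0.092 to 0.17). The mean of the 9 was 6.61, 6.72 and 6.31 in acinar arrays, against 7.38, 7.63 and 7.05 in progenitor arrays. Among the progenitors, replicate 2 stood closest to the acinar arrays for 80.9% of the 671 genes called higher in acinar cells, for 74% of the 1021 called lower and for 49.2% of all genes tested. In bulk samples of this kind, more cells of a type and more RNA per cell cannot be told apart.

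Most of the acinar transcription factors were higher in acinar cells. Of the 10 genes in that list, 6 were called higher (60%) and none lower, with a median difference of 1.17. Besides Ptf1a (2.00 ± 0.53 (SE), adjusted p = 0.0047) and Bhlha15 (2.08 ± 0.43, adjusted p = 0.00039), the called genes were Rbpjl, Gata4, Foxp2 and Xbp1. Rbpjl, the RBPJ paralog of the mature PTF1 complex, read 12.36, 12.04 and 11.93 in acinar arrays, against 10.05, 10.98 and 8.36 in progenitor arrays, a difference of 2.32 ± 0.53 (adjusted p = 0.0013). Gata4, a zinc-finger factor that is kept in tip cells, read 11.54, 11.85 and 11.48 in acinar arrays, against 9.73, 10.58 and 8.67 in progenitor arrays (adjusted p = 1.5e-05). Foxp2, a forkhead factor, differed by 1.25, and Xbp1, which drives the secretory arm of the unfolded protein response, by 1.08. In the progenitor arrays Ptf1a, Rbpjl, Bhlha15, Gata4 and Xbp1 shared 1 order, with replicate 2 highest and replicate 3 lowest, and Foxp2 did not vary that way, at 7.46, 7.56 and 7.50. Nr5a2, a nuclear receptor that serves progenitors and acinar cells alike, overlapped between the populations and differed by 0.22 (adjusted p = 0.76). Without progenitor replicate 3 the difference of Ptf1a was 1.35 (adjusted p = 0.099) and that of Xbp1 was 0.89, and neither was called.

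**Figure D1:**
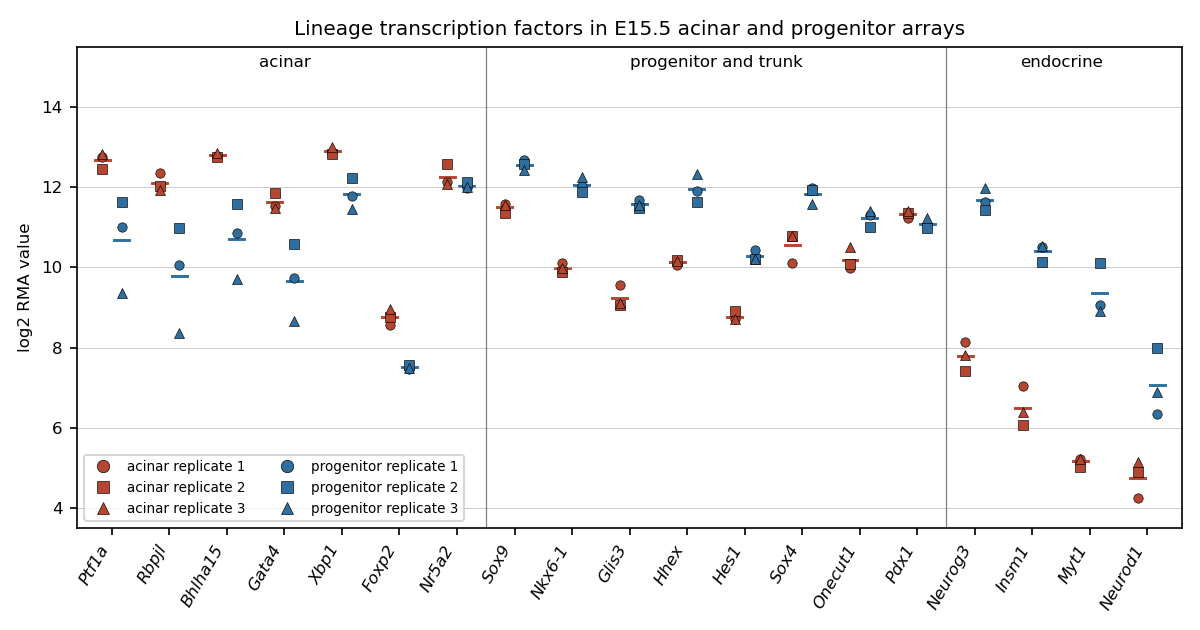
Log2 RMA values (vertical axis) of acinar, progenitor and endocrine transcription factor genes (horizontal axis) in each array, with acinar replicates in red to the left of progenitor replicates in blue and a bar at each mean of 3 arrays. Ptf1a, Rbpjl, Bhlha15 and Gata4 were spread over more than 1 log2 unit among progenitor arrays and under 1 among acinar arrays, while Nkx6-1, Glis3 and Neurog3 were tight in both and lower in acinar cells.

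The digestive enzyme genes had positive differences over a wide range. All 19 tested members of the list of 28 had a positive difference, with a median of 1.71. In 18 of them every acinar array lay above every progenitor array, against 21.9% of all genes. Cpb1, a carboxypeptidase, read 12.38, 12.25 and 12.27 in acinar arrays, against 7.99, 10.14 and 7.67 in progenitor arrays. Rnase1, the pancreatic ribonuclease, read 12.80, 13.03 and 12.90 in acinar arrays, against 10.63, 12.03 and 9.63 in progenitor arrays. At the other end, Ctrb1, chymotrypsinogen B, read 14.68, 14.77 and 14.77 in acinar arrays, against 14.36, 14.57 and 13.99 in progenitor arrays. Small differences were also those of Pnliprp1, a lipase-related protein (0.37), and Cpa1, carboxypeptidase A1 (0.61). Like Ctrb1, both were among the brightest probe sets, the highest value on the 6 arrays being 15.10. The signal of very bright probes can saturate, and whether it did so here was not tested. The acinar arrays were alike, with a median SD of 0.12 over the 19 genes, whereas the progenitor arrays had a median SD of 1.12 and were ordered with replicate 2 highest in 18 of the 19.

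Only Amy1, an amylase gene, was called among the enzymes in the fit over all 48 arrays (1.79 ± 0.48, adjusted p = 0.0052). Without progenitor replicate 3 it was not called (1.43, adjusted p = 0.063), nor was any other enzyme. Leaving out progenitor replicate 2 gave 2 called enzymes. The standard errors of this list came from all populations, and the adult alpha arrays alone spread from 6.90 to 11.90 in their mean over the 19 enzymes. A fit of the 6 arrays, which called 4.87% of all genes higher and 7.28% lower, called 12 of the 19 higher, among them Cpb1 (adjusted p = 0.0041), Prss3, a trypsinogen (adjusted p = 0.015), and Ctrc, chymotrypsin C (adjusted p = 0.013). For context, the 19 enzymes averaged 11.84 in acinar cells and 10.15 in progenitors, and their population means ran from 7.26 in the E11.5 Sox9 population of earlier multipotent progenitors to 13.22 in adult Duct cells (n = 4 each). P0 Beta (12.02, n = 3) and adult Beta arrays (12.33, n = 4) were also above the acinar mean.

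**Figure D2:**
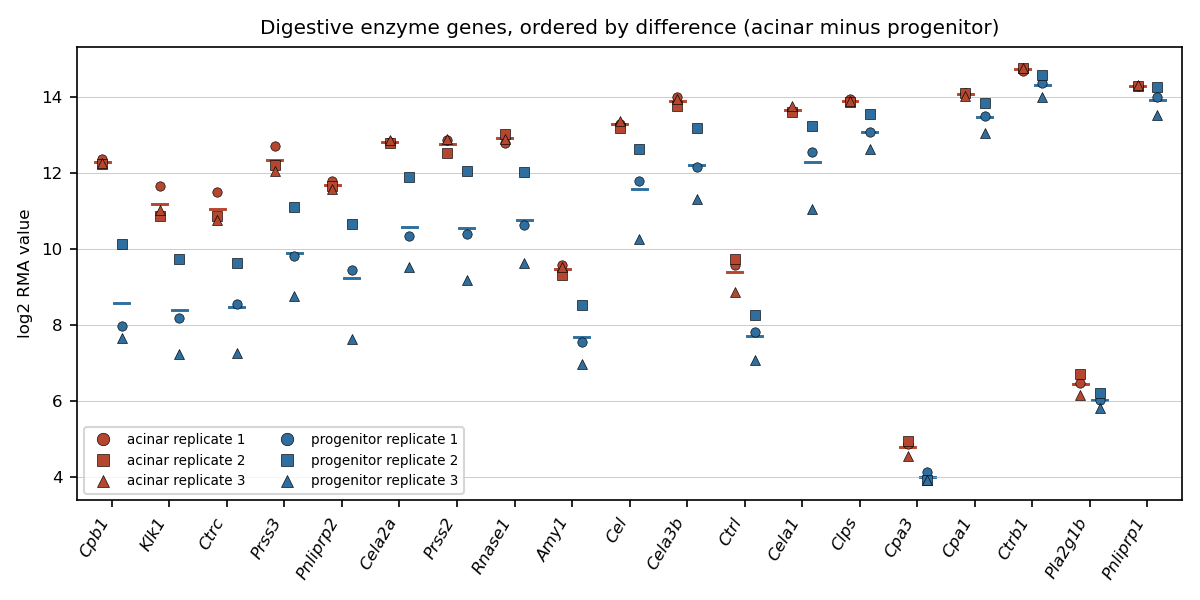
Log2 RMA values (vertical axis) of 19 digestive enzyme genes, ordered from the largest to the smallest difference (acinar minus progenitor), with acinar replicates in red to the left of progenitor replicates in blue and a bar at each mean. Progenitor replicate 2 was the highest and replicate 3 the lowest progenitor array for nearly all of these genes, while the acinar arrays lay close together.

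The PTF1 complex is known to bind a bipartite site in exocrine promoters, made of an E-box (CANNTG) and a TC-box (TTTCCC) close by. The start-site regions of 4 acinar genes that hold both within 20 bases are shown, since the complex's own genes were among those higher in acinar cells, together with that of Egr2, described further on. Each RefSeq window (GRCm38.p6) covers 250 bases before to 50 after the start site and reads 5′ to 3′ on the gene's strand. Capitals mark the E-box and the TC-box nearest to each other (GGGAAA is a TC-box on the other strand) and, in Egr2, a CArG box, the site of serum response factor.
Ctrb1, chr8:111690961-111691260, minus strand: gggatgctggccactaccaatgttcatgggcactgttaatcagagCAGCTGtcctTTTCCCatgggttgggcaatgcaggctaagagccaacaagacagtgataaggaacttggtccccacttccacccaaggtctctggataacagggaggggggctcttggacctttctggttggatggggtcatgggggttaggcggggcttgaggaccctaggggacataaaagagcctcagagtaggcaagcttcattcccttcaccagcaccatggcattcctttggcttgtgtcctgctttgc
Cela1, chr15:100687871-100688170, minus strand: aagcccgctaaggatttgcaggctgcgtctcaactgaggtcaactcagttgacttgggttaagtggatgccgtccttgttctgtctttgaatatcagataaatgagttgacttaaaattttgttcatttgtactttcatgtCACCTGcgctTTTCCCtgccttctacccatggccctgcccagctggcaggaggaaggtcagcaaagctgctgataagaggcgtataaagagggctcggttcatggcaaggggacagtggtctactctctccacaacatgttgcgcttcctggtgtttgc
Cpa1, chr6:30638968-30639267, plus strand: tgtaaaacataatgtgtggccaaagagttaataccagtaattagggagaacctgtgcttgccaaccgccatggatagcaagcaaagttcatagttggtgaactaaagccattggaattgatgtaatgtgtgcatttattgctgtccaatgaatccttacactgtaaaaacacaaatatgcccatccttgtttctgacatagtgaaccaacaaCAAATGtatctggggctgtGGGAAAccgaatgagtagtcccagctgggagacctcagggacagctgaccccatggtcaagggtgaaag
Reg3d, chr6:78378816-78379115, minus strand: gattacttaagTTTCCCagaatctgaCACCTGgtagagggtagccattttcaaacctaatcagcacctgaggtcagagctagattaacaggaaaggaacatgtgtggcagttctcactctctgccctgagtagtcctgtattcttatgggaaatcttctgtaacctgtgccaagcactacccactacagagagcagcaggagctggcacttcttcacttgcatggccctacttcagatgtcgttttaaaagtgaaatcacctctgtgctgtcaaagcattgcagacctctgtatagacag
Egr2, chr10:67537619-67537918, plus strand: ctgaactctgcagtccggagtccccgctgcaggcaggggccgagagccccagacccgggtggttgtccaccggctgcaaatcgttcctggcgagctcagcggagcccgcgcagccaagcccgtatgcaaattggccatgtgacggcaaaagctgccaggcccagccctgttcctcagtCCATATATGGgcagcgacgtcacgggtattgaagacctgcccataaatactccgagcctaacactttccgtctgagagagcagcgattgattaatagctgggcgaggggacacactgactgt
In Ctrb1 the E-box began 205 bases and in Cela1 109 bases before the start site, and 4 bases stood between E-box and TC-box in both. Searched on both strands, 20 of 23 digestive enzyme genes with a RefSeq window held an E-box, against 75% of 27025 genes with a window, and 9 held a TC-box, against 27.9% of all. An E-box and a TC-box within 20 bases, a spacing set after the sequences were seen, were found in 5 of the 23, against 5.39% of all genes, and in 21 of 485 genes called higher in acinar cells (4.33%). An RBPJ-type TTCCCA, which shares 5 letters with the TC-box, was in 12 of the 23, against 28.3% of all. A match describes letters in the window and not a bound site.

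A few genes of the zymogen granule and of acinar secretion were also higher in acinar cells. Of 30 genes, 5 were called higher (16.7%) and none lower, with a median difference of 1.503. Tmed11, a cargo receptor of early secretory vesicles, read 9.76, 9.84 and 9.71 in acinar arrays, against 6.86, 7.89 and 5.55 in progenitor arrays. Rab26, a small GTPase of secretory granules, read 10.80, 10.46 and 10.43 in acinar arrays, against 8.14, 9.22 and 6.92 in progenitor arrays (2.47 ± 0.48, adjusted p = 0.00015). Rab3d, a zymogen granule GTPase, differed by 1.92, Tmed6 by 1.53 and Reg3d, a secreted lectin of the regenerating family, by 2.67. The acinar arrays stood above every progenitor array for each of the 5. Leaving out progenitor replicate 3 left 2 of them called and leaving out acinar replicate 1 left 3, Reg3d having an adjusted p of 0.056 to 0.16 without any of 4 of the arrays, and the 6-array fit called 15.

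Some genes of the endoplasmic reticulum were higher in acinar cells, most of them by smaller steps. Of 42 genes of protein folding and the unfolded protein response, 8 were called higher (19%) and 1 lower, with a median of 0.42. Fkbp11, a prolyl isomerase of secretory cells, read 12.44, 12.06 and 11.98 in acinar arrays, against 10.33, 11.26 and 9.02 in progenitor arrays. Ero1b, the oxidase that charges disulfide formation in pancreatic cells, differed by 1.79, Edem2 by 1.73 and Edem1 by 1.67, the EDEM proteins being lectins of glycoprotein disposal. The gene that was lower, Atf3, is also an immediate early gene and is described with those. Without acinar replicate 3, 5 of the 42 were called higher. In 2 related lists the share called was near that of all genes, at 1 of 29 genes of translocation and N-glycosylation (3.45%), the signal peptidase subunit Spcs3 (1.10), and 2 of 36 genes of transport between endoplasmic reticulum and Golgi (5.56%), and both lists had a median of 0.43. Of the transport genes, Sec16b, which organizes exit sites, was called at 2.76 ± 0.29 (adjusted p = 2.0e-09), with 9.54, 9.30 and 9.45 in acinar arrays, against 6.71, 7.68 and 5.61 in progenitor arrays, and Mcfd2, a cargo receptor subunit, at 1.12. Of 18 aminoacyl-tRNA synthetase genes none was called, and the median difference was 0.48. In 12 of them every acinar array lay above every progenitor array, against 21.9% of all genes. Among 24 amino acid transporters 4 were called higher (16.7%), as Slc7a2, a cationic transporter (1.92), and Slc1a5, a glutamine transporter (1.64). Of the same genes 1 was called lower (4.17%), Slc1a1, a glutamate transporter (-1.99). The value of Slc7a2 rests on 1 probe set, since its other, dimmer ones differed by -0.02 to 0.37 and were not called.

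Several progenitor and trunk transcription factors were lower in acinar cells. Of 20 tested genes, 7 were called lower (35%) and none higher in acinar cells, with a median difference of -0.77. Nkx6-1, a homeodomain factor of the trunk, read 10.12, 9.88 and 9.99 in acinar arrays, against 12.04, 11.87 and 12.25 in progenitor arrays (-2.06 ± 0.21, adjusted p = 7.7e-10). Glis3, a zinc-finger factor of duct and endocrine development, read 9.56, 9.05 and 9.10 in acinar arrays, against 11.67, 11.48 and 11.56 in progenitor arrays (-2.33 ± 0.18, adjusted p = 2.6e-12). Hhex, a homeodomain factor of the early bud and the ducts, read 10.07, 10.19 and 10.16 in acinar arrays, against 11.91, 11.63 and 12.33 in progenitor arrays. None of these groups of arrays overlapped. Sox9 itself differed by -1.05 ± 0.29 (adjusted p = 0.0078), close to the threshold of size, and by -0.98 without acinar replicate 2 and likewise -0.98 with the arrays centred on their medians. Onecut1, a cut homeodomain factor, had the same difference as Sox9, -1.05, which fell short of the threshold without progenitor replicate 3 (-0.96, adjusted p = 0.051), without acinar replicate 1 (-0.94) or without acinar replicate 2 (-0.99), and Hhex had an adjusted p of 0.075 without progenitor replicate 3. Sox4 differed by -1.28 and Hes1 by -1.51. Among the other Sox4 probe sets, the brightest on these arrays differed by -0.50 (adjusted p = 0.54) and the rest, all called, by -1.51 to -1.81. Factors of both lineages were close, as Pdx1, at 11.24, 11.37 and 11.41 in acinar arrays, against 11.02, 10.98 and 11.22 in progenitor arrays (0.26, adjusted p = 0.47), and Foxa2 (0.28, adjusted p = 0.25). Sox9 averaged 12.51 in E11.5 Sox9 cells and 12.71 in adult Duct cells (n = 4 each), next to 12.56 in E15.5 progenitors and 11.51 in E15.5 acinar cells, and Ptf1a averaged 10.93 in the E11.5 cells, next to 10.67 in the progenitors and 12.68 in the acinar cells.

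In the Notch pathway list the called receptor and target genes were lower in acinar cells. Notch receptors are cleaved on contact with ligand and switch on genes of the Hes and Hey families through RBPJ. Of 31 tested genes, 5 were called lower (16.1%) and 1 higher (3.23%) in acinar cells, and the median of the list was 0.08. Among receptors, Notch3 read 7.58, 7.51 and 7.14 in acinar arrays, against 10.51, 10.33 and 10.44 in progenitor arrays (-3.02 ± 0.38, adjusted p = 8.5e-08), and Notch2 differed by -1.42. Among targets, Hes1 read 8.70, 8.91 and 8.71 in acinar arrays, against 10.45, 10.21 and 10.20 in progenitor arrays. Hey1 read 7.32, 7.83 and 8.09 in acinar arrays, against 9.53, 9.27 and 9.55 in progenitor arrays. For these receptors and targets the arrays of the populations did not overlap. Over the whole list they did not overlap in 21 genes, 12 of them higher and 9 lower in acinar cells. Nrarp, a feedback inhibitor that Notch induces, differed by -1.28 with an adjusted p of 0.046, which lay between 0.062 and 0.14 on leaving out each array in turn. Lfng, a glycosyltransferase that modifies Notch receptors, was the one gene of the list called higher in acinar cells. It read 10.82, 10.79 and 10.75 there, against 9.42, 9.82 and 8.64 in progenitor arrays (1.49, adjusted p = 0.0019). Outside the list, Hes7 was also called higher in acinar cells (2.06 ± 0.26, adjusted p = 1.1e-07). Its acinar arrays read 7.91, 7.74 and 7.57, against 5.57, 6.40 and 5.08 in progenitor arrays. Of 7 tested Hes and Hey family genes, 1 was called higher and 2 lower. No ligand gene of the list was called. In E11.5 Sox9 cells Notch3 averaged 10.10, Hey1 10.81 and Hes1 9.09 (n = 4).

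Several duct genes and genes of the primary cilium were lower in acinar cells. Of 25 duct genes, 10 were called lower (40%) and 1 higher (4%), with a median difference of -0.45. Pkhd1, which encodes the cilium-associated protein fibrocystin, read 7.57, 7.75 and 7.31 in acinar arrays, against 10.03, 9.70 and 10.37 in progenitor arrays (-2.49 ± 0.37, adjusted p = 2.1e-06). Krt7, a keratin of simple ducts, read 10.57, 10.07 and 10.36 in acinar arrays, against 12.22, 11.95 and 12.42 in progenitor arrays. Cftr, the apical chloride channel, read 5.40, 5.23 and 5.03 in acinar arrays, against 6.54, 6.78 and 8.01 in progenitor arrays. In adult Duct cells (n = 4) Krt7 averaged 12.13, near its progenitor level, whereas Pkhd1 averaged 12.48 and Cftr 12.13, above theirs. Slc26a6, an anion exchanger of the apical membrane, was the exception at 1.30 higher in acinar cells. Without progenitor replicate 3, 6 duct genes were called lower. Of 42 cilium genes, 13 were called lower (31%) and none higher, with a median of -0.58. Among them were Bicc1, an RNA-binding protein (-1.86), Bbs1, a BBSome subunit (-1.57), and Dync2li1, a subunit of the retrograde motor (-1.50 ± 0.15, adjusted p = 1.2e-09). Dync2li1 read 8.95, 9.10 and 8.90 in acinar arrays, against 10.40, 10.24 and 10.80 in progenitor arrays. Tctn1, Tctn2, Wdr19, Ift57 and Ift81, which encode transition zone and intraflagellar transport proteins, differed by -1.01 to -1.48.

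Several genes of the Hippo pathway and targets of YAP were lower in acinar cells than in progenitors. In this pathway the LATS kinases restrain the coactivators YAP and TAZ. Of 20 genes, 7 were called lower (35%) and none higher, with a median of -0.46. Ankrd1, a YAP target, read 3.88, 3.98 and 4.31 in acinar arrays, against 7.92, 7.23 and 8.48 in progenitor arrays (-3.82 ± 0.38, adjusted p = 7.1e-10). Its other probe set differed by -0.72 and was not called. Amotl2, an angiomotin and YAP target, read 8.16, 8.21 and 8.55 in acinar arrays, against 10.97, 10.69 and 10.83 in progenitor arrays. Ccn2, a secreted matricellular target, read 8.55, 9.62 and 8.77 in acinar arrays, against 11.57, 11.21 and 11.69 in progenitor arrays. The others were Ccn1 (-3.31), Ajuba (-2.47), Lats2 (-1.32) and Amot (-1.22). Acinar replicate 2 was the highest acinar array for Ccn1, Ccn2, Amot, Ajuba and Lats2, as it was for immediate early genes.

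Among matrix and adhesion genes more were lower than higher in acinar cells. Among 36 genes of laminins, collagen IV and integrins, 9 were called lower (25%) and 3 higher (8.33%) in acinar cells, with a median of -0.28. Itgb8, an integrin subunit that activates latent TGF-beta, read 4.53, 4.36 and 4.13 in acinar arrays, against 7.79, 7.38 and 8.61 in progenitor arrays (-3.59 ± 0.37, adjusted p = 1.3e-09). Lama1, the laminin alpha 1 chain of epithelial basement membrane, read 7.10, 6.56 and 6.49 in acinar arrays, against 9.51, 9.35 and 9.91 in progenitor arrays. Lamc1, Lamb1, Lamb2, Col4a5 and Col4a6 differed by -1.03 to -1.58. The genes that were higher, Nid1 (3.93), Nid2 (2.85) and Itga2 (1.19), encode basement membrane linkers and a collagen receptor subunit, and Nid1 and Nid2 were highest in acinar replicate 2. Of 32 adhesion and tight junction genes, Cldn9 (-2.59), Cldn23 (-2.44), Cldn2 (-2.32) and Cldn1 (-1.54) were lower, the last with an adjusted p of 0.11 without progenitor replicate 3. Cldn18 (2.10) was higher, as was the endothelial claudin Cldn5 (4.03).

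Growth factor pathways showed members in both directions. Of 27 genes of FGF, EGF and Met signalling, 8 were called lower (29.6%) and 2 higher (7.41%), with a median of -0.61. Fgfr2, the receptor for mesenchymal FGF10, read 11.27, 10.71 and 10.96 in acinar arrays, against 12.77, 12.50 and 12.84 in progenitor arrays (-1.73 ± 0.31, adjusted p = 6.1e-05), and Fgfr3 and Fgfr4 differed by -2.07 and -1.73. Fgf12, an intracellular FGF homolog, read 4.89, 4.83 and 4.62 in acinar arrays, against 8.19, 7.65 and 8.42 in progenitor arrays (-3.31 ± 0.20, adjusted p = 4.4e-15). Erbb2, a receptor tyrosine kinase, differed by -1.81, and Egf, a ligand of its partner, by 1.76, at 9.15, 8.39 and 8.98 in acinar arrays, against 6.89, 7.43 and 6.92 in progenitor arrays. Without progenitor replicate 3, 5 genes of this list were called lower.

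In the Wnt pathway the called genes went both ways. Of 40 genes, 5 were called lower (12.5%) and 4 higher (10%) in acinar cells, with a median of -0.05. The lower ones were the ligands Wnt5a (-2.56), Wnt9a (-2.32), Wnt7b (-2.25) and Wnt5b (-1.32) and the secreted antagonist Sfrp1 (-2.22). Wnt7b read 6.66, 6.36 and 6.61 in acinar arrays, against 8.61, 8.55 and 9.22 in progenitor arrays. The higher ones were Notum, a secreted enzyme that inactivates Wnt ligands (2.13), the antagonist Frzb (2.08), the R-spondin receptor Lgr5 (2.06) and the receptor Fzd4 (1.19, adjusted p = 0.052 without progenitor replicate 3). Notum read 8.77, 8.25 and 8.76 in acinar arrays, against 6.56, 7.07 and 5.76 in progenitor arrays. Of 34 genes of TGF-beta, BMP and activin signalling, 3 were called in each direction (8.82% each). Among them were Inhbb, the activin beta B subunit (-2.43), Tgfb2 (-1.79) and the type I receptor gene Acvr1c (1.91).

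**Figure D3:**
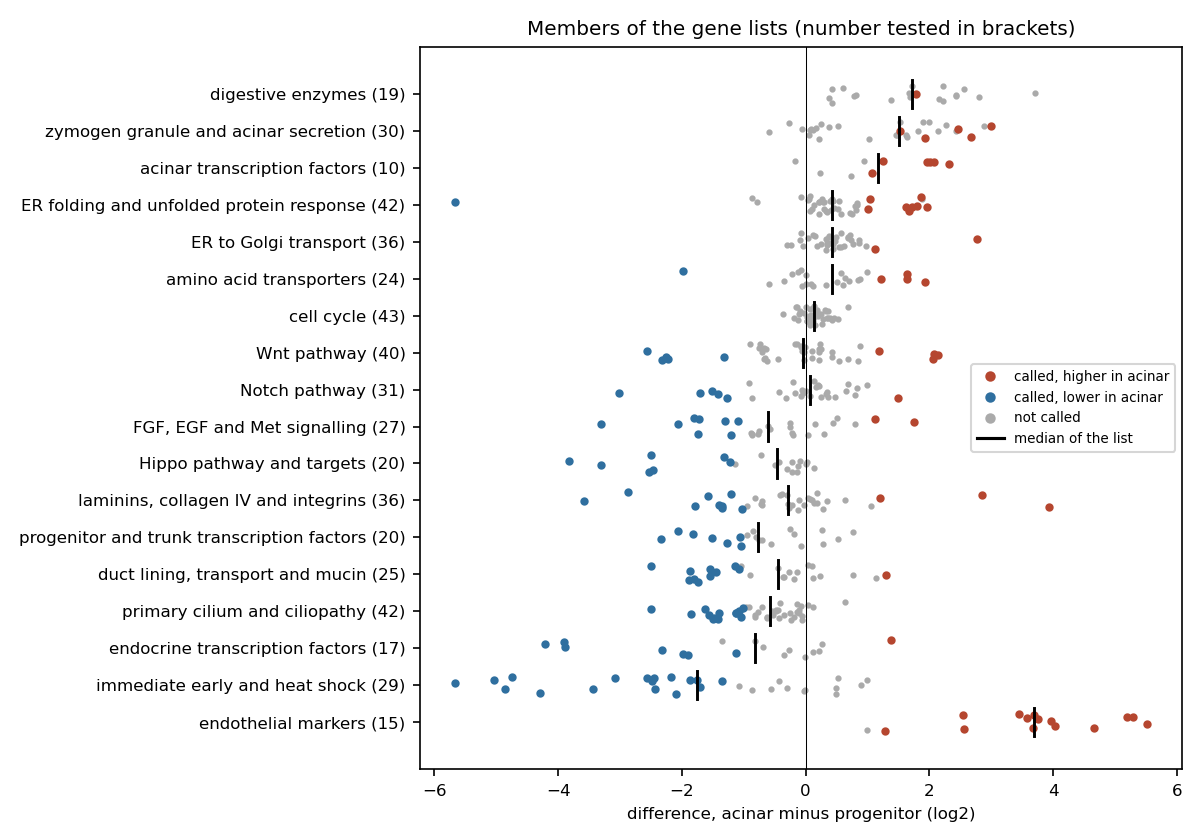
Differences (horizontal axis, acinar minus progenitor, log2) of the tested members of 18 gene lists, 1 point per gene, red where called higher in acinar cells, blue where called lower, grey where not called, with a black bar at each list's median and the number tested in brackets. Exocrine and endothelial lists lay right of 0, trunk, duct, cilium, endocrine and immediate early lists left of it, and no cell cycle gene was called.

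Several genes of the endocrine lineage were lower in acinar cells. Of 17 tested endocrine transcription factors, 7 were called lower (41.2%) and 1 higher (5.88%), with a median of -0.81. Neurog3, the factor that commits cells to the endocrine fate, read 8.14, 7.42 and 7.82 in acinar arrays, against 11.64, 11.43 and 11.98 in progenitor arrays, and the sort used its reporter, so that this is a description. Insm1, a zinc-finger target of NEUROG3, read 7.05, 6.06 and 6.39 in acinar arrays, against 10.52, 10.14 and 10.53 in progenitor arrays (-3.90 ± 0.28, adjusted p = 2.0e-13). Myt1, another zinc-finger factor of endocrine progenitors, read 5.23, 5.03 and 5.22 in acinar arrays, against 9.07, 10.11 and 8.91 in progenitor arrays (-4.21 ± 0.28, adjusted p = 5.2e-14). Neurod1, Pax4, Isl1 and Nkx2-2 differed by -2.32, -1.98, -1.90 and -1.13, of which Isl1 was not called without progenitor replicate 2 (adjusted p = 0.064), its highest array, and Nkx2-2 was not called without progenitor replicate 3 (adjusted p = 0.099) or acinar replicate 2 (adjusted p = 0.063). The GFP-positive E15.5 Endocrine Progenitor population (n = 3) averaged 13.40 for Neurog3, 12.39 for Insm1 and 13.77 for Myt1, so that the progenitors lay between it and the acinar cells for all of them. Runx1t1, a corepressor of the list, was called at 1.38 with overlapping arrays and was lost without progenitor replicate 3 (0.64) or acinar replicate 3 (adjusted p = 0.062). Of 17 hormone and granule genes, Chgb (-2.02), Chga (-1.51) and Scg5 (-1.42), granule proteins, were lower, and Cpe, a carboxypeptidase of prohormones (1.39), and the convertase gene Pcsk1 (1.15) were higher, the last with 0.99 without progenitor replicate 3.

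Proliferation genes did not separate the populations at these thresholds. None of 43 cell cycle genes was called, their median difference was 0.13, and their mean was 11.21 to 11.32 in acinar arrays and 11.02 to 11.27 in progenitor arrays. The 6-array fit called none either. Of 14 D cyclins, Cdk inhibitors and related genes, 2 were called lower (14.3%) and none higher, the cyclin Ccnd1 and the dim inhibitor gene Cdkn2b (-1.05), which was not called without acinar replicate 3 (-0.92) or progenitor replicate 3 (-0.82). Ccnd1 was at 11.42, 11.31 and 11.46 in acinar arrays, against 12.56, 12.30 and 12.90 in progenitor arrays (-1.19 ± 0.20, adjusted p = 1.6e-05). Myc, a growth regulator, moved the other way, at 11.89, 10.79 and 12.09 in acinar arrays, against 9.18, 9.46 and 9.37 in progenitor arrays (2.25 ± 0.47, adjusted p = 0.00043). It averaged 9.98 in E11.5 Sox9 cells (n = 4).

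The largest decreases in acinar cells included immediate early genes, which are transcribed within minutes of a stimulus and can also be induced by tissue dissociation. Of 29 immediate early and heat shock genes, 17 were called lower (58.6%) and none higher, with a median of -1.76. Atf3, a stress-induced factor, had the largest difference of the called genes in this direction and read 5.23, 8.37 and 5.83 in acinar arrays, against 11.91, 11.71 and 12.83 in progenitor arrays (-5.67 ± 0.69, adjusted p = 4.9e-08). Fos, a subunit of AP-1, read 4.46, 12.55 and 9.33 in acinar arrays, against 13.50, 13.50 and 13.92 in progenitor arrays. Egr2, a zinc-finger factor whose start-site window is printed above, read 4.53, 10.17 and 5.90 in acinar arrays, against 12.14, 11.80 and 11.77 in progenitor arrays. The groups did not overlap, but acinar replicate 2 was far above the other acinar arrays for all of these, and in the 6-array fit Fos had an adjusted p of 0.078. Genes with tighter acinar arrays were Ier3, at 7.72, 8.25 and 7.88 in acinar arrays, against 10.65, 10.26 and 10.61 in progenitor arrays, Klf6 (-2.43) and Dusp1, a phosphatase of MAP kinases (-3.08). The mean of the 29 genes was 8.09, 9.77 and 8.59 in acinar arrays, against 10.53, 10.47 and 10.82 in progenitor arrays. It was 9.78 in E11.5 Sox9 cells (n = 4), 10.18 in E15.5 Endocrine Progenitor cells (n = 3) and 12.57 in adult Duct cells (n = 4), all above the acinar mean of 8.82. A CArG box was in the windows of 2 of 24 such genes, against 1.81% of all genes, and was searched for after the data had been examined.

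The largest increases in acinar cells were those of genes mostly known from endothelium. The 15 leading genes were Aplnr, Fabp4, Cav1, Plvap, Ctla2a, Gimap4, Emcn, Tek, Tmem204, Calcrl, Klhl4, Exoc3l2, Robo4, Pcdh17 and Cd34, with differences of 8.78 down to 4.56. Aplnr, the apelin receptor, read 12.16, 12.47 and 12.19 in acinar arrays, against 3.49, 3.65 and 3.33 in progenitor arrays (8.78 ± 0.60, adjusted p = 5.6e-14). Tek, the angiopoietin receptor TIE2, read 8.90, 10.18 and 9.44 in acinar arrays, against 3.90, 4.91 and 4.11 in progenitor arrays. Cdh5, the cadherin that defines endothelium, read 7.22, 7.66 and 8.04 in acinar arrays, against 3.96, 4.08 and 3.88 in progenitor arrays. The progenitor values of these genes were near the lower end of the scale. The median difference of the 15 markers was 3.69, and Ets1 alone was not called. Their mean in acinar cells, 9.15, was below the means of the E17.5 Beta (10.08, n = 3), P0 Beta (10.88, n = 3) and P0 Alpha arrays (9.49, n = 4) and above those of the other populations, while the progenitor mean, 5.54, was near those of E11.5 Sox9 (5.12, n = 4) and E15.5 Endocrine Progenitor arrays (5.13, n = 3). The part of endothelial cells in the differences was not tested.

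**Figure D4:**
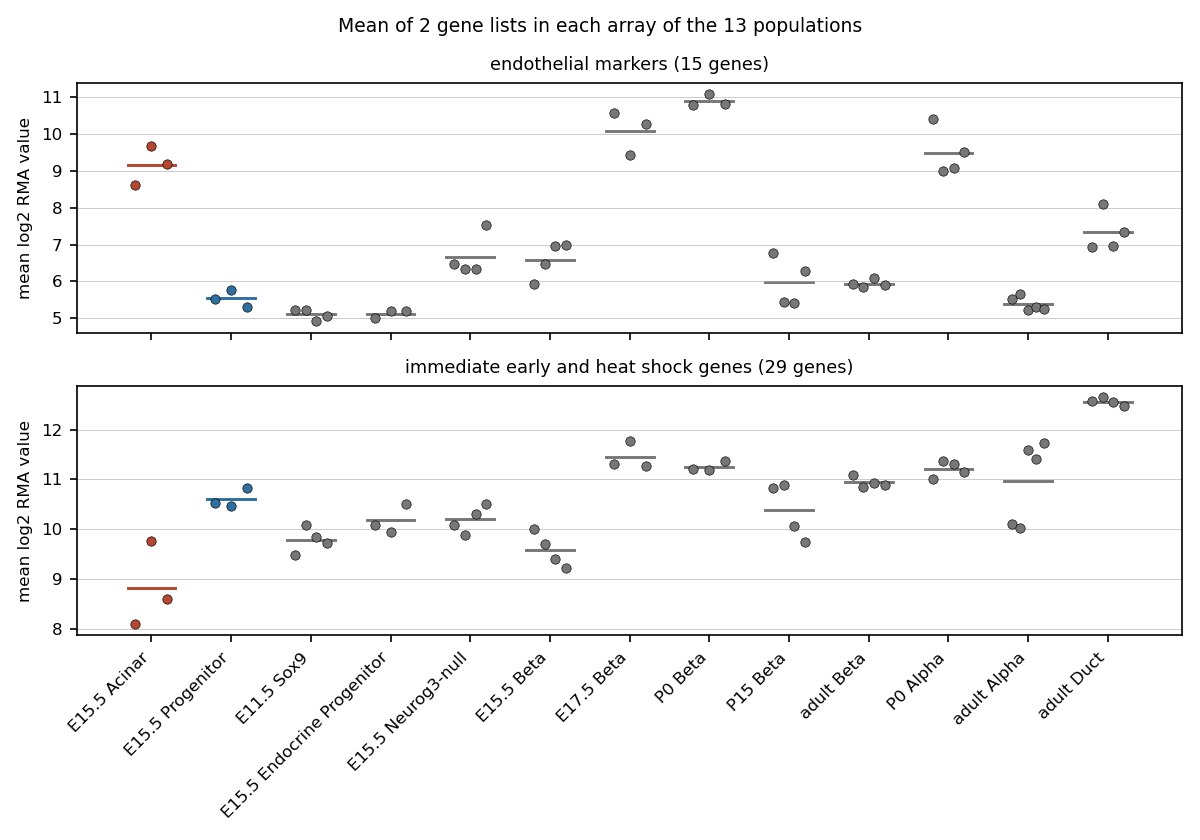
Mean log2 RMA value (vertical axes) of 15 endothelial marker genes (top) and of 29 immediate early and heat shock genes (bottom) in each array of the 13 populations, 1 point per array with a bar at each population's mean, acinar cells in red and progenitors in blue. The acinar arrays (8.61 to 9.66) lay above the progenitor arrays (5.32 to 5.78) for the endothelial genes and below them for the immediate early genes, for which acinar replicate 2, at 9.77, was nearest to the progenitor arrays (10.47 to 10.82).

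**Figure D5:**
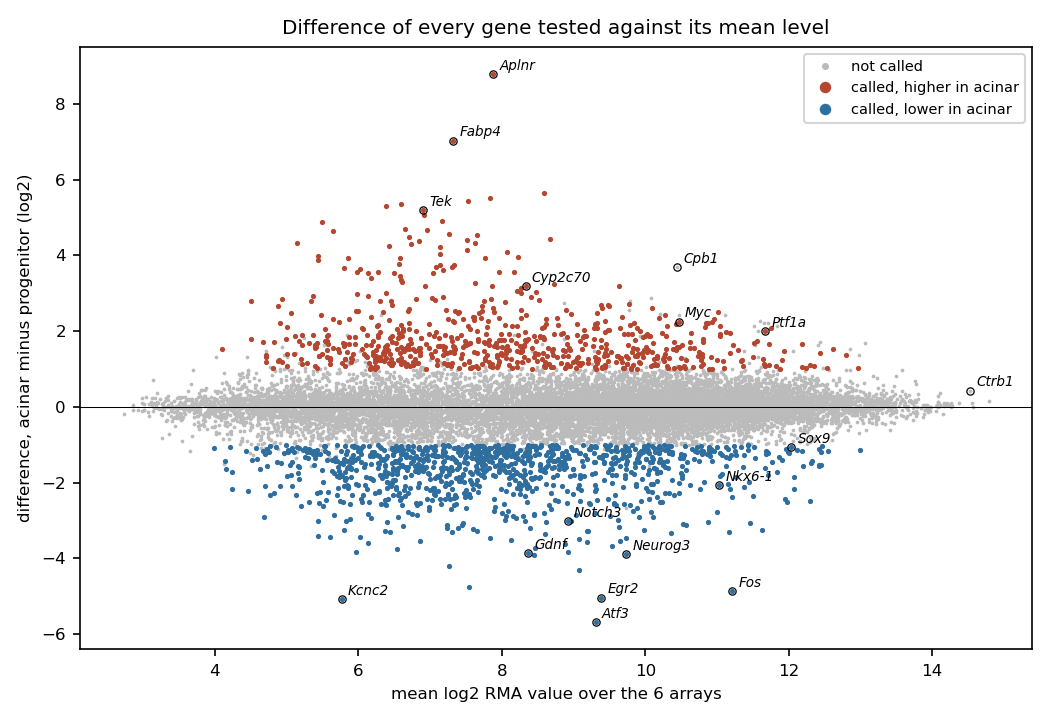
Difference (vertical axis, acinar minus progenitor, log2) against the mean log2 RMA value over the 6 arrays (horizontal axis) for 14485 genes, red where called higher in acinar cells, blue where called lower and grey where not called. Endothelial genes such as Aplnr and Tek had the largest differences upward and Atf3, Kcnc2, Egr2 and Fos the largest downward, while bright enzyme genes such as Ctrb1 lay near 0.

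Beyond these groups, the leading decreases in acinar cells held Kcnc2, a voltage-gated potassium channel subunit, at 2.71, 4.03 and 2.96 in acinar arrays, against 8.73, 8.21 and 7.99 in progenitor arrays (-5.08 ± 0.52, adjusted p = 1.2e-09). Gdnf, a ligand of the RET receptor, read 6.58, 6.38 and 6.34 in acinar arrays, against 10.39, 9.90 and 10.60 in progenitor arrays (-3.86 ± 0.25, adjusted p = 9.5e-15). Its receptor gene Ret was higher in acinar cells, at 11.20, 10.87 and 11.56, against 9.50, 10.53 and 7.74 in progenitor arrays (1.95 ± 0.37, adjusted p = 0.00012), though the 6-array fit gave an adjusted p of 0.057. Ligand and receptor thus had opposite signs. Slc2a2, the glucose transporter GLUT2, read 8.29, 7.27 and 7.56 in acinar arrays, against 11.39, 11.13 and 11.62 in progenitor arrays (-3.68 ± 0.27, adjusted p = 2.6e-13). Dcdc2a, a microtubule-binding doublecortin protein, differed by -3.84 and the cell-surface peptidase gene Mme by -3.74.

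Across 321 tested genes of transcription factor families, 32 were called higher (9.97%) and 45 lower (14%) in acinar cells. Of all genes, 4.63% were called higher and 7.05% lower. The leading higher ones were Fli1 (3.99), Sox7 (3.94), Sox17 (3.57), Sox18 (3.30), Hoxd8 (3.00), Zeb1 (2.52), Nr2f2 (2.50) and Tal1 (2.42), most of them known for roles in vascular or blood cells, and after them Rbpjl, Myc, the nuclear receptor gene Esrrg (2.19) and Bhlha15. The leading lower ones were the AP-1 and stress factors Atf3, Fos, Fosb, Nr4a1, Klf6, Jun and Klf4 and, apart from those, Neurog3, Sox10 (-2.63), Ikzf3 (-2.40), Neurod1 and Stat3 (-2.14). The value of Stat3 rests on 1 probe set, since the others differed by -0.26 (adjusted p = 0.52) and -0.24 (adjusted p = 0.63). By family, the AP-1 genes had 6 of 14 lower and none higher, the Sox genes 6 of 13 lower and 3 higher, and the Hox cluster 4 of 15 higher and none lower. Sox10, known from neural crest, read 6.34, 7.32 and 6.11 in acinar arrays, against 9.07, 9.02 and 9.57 in progenitor arrays. S100b, a glial calcium-binding protein, differed by -3.27 and Tubb3, a neuronal tubulin, by -1.88. Esrrg read 10.40, 10.10 and 10.68 in acinar arrays, against 8.63, 9.06 and 6.92 in progenitor arrays.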

How the data were processed

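RNA of the sorted cells was amplified and hybridized by the authors to 1 array per sample, and the deposited values are log2 RMA values, background-corrected, quantile-normalized and summarized per probe set by the authors in R 2.11.1 over 48 arrays of 13 populations. They were used as deposited. Arrays carry no depth, and the number of arrays limits the precision. Probe sets (45101) were named from the platform annotation: 34958 carried 1 gene, 932 several and 9211 none, and only those with 1 gene were read as genes. Probe sets above 100 on the linear scale in at least 1 of the 48 arrays were tested (32078). The model had 13 population means and was fitted with limma 3.58.1 in R 4.3.3 (lmFit and eBayes, Benjamini-Hochberg adjustment over all tested probe sets), with the contrast acinar minus progenitor. The methods used a t-test on pairs of populations, which was run as an alternative. Groups came from the sample titles. Named genes were the markers and sort antigens, the 15 largest called differences without overlap in each direction, up to 6 called members of each of 32 lists in each direction, the acinar, progenitor and endocrine factors, and the 12 leading factors of the families in each direction. Members, lists and rule were chosen with earlier results of these data known. Alternatives covered filters, samples in the fit, a replicate block, normalization, centring, moderation, array weights, probe choice and leaving out each array. The fit was tested on simulated data. Promoter windows were RefSeq's, of GRCm38.p6; 11630 of the 14485 tested genes had one by symbol.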

Additional observations from a re-analysis of the deposited data

How the results depend on the processing

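The 3175 called probe sets (1307 higher, 1868 lower in acinar cells) were 2606 to 3440 on leaving out each array in turn, with 1080 to 1424 higher and 1526 to 2016 lower, and 1785 (512 higher) by the methods' t-test after Benjamini-Hochberg adjustment, a count that shared 1741 with the 3175. A filter on 24 of the 48 arrays, which removes genes that few populations express, left 733 higher, and 6 of the 15 endothelial genes. Among genes called higher without overlap of arrays, 260 of 650 had an acinar mean at least 1 unit above those of E17.5 Beta, P0 Beta and P0 Alpha arrays. Samples of the same replicate number correlated by -0.001, 0.10 and 0.02 after removal of the group means. With 3 arrays a population these values cannot tell whether arrays of the same number shared a pool or sort. A fit with the replicate number as a block called 3351 probe sets. That block, the 6-array fit, 6-array quantile normalization and array weights called 12, 12, 11 and 12 digestive enzymes. The same settings called 16, 15, 15 and 16 zymogen granule genes. Array weights kept all 48 arrays, the other settings named used the 6 alone, and the cause was not tested. The array weights were 12.85, 1.33 and 0.65 for progenitor replicates 1, 2 and 3, so that replicate 1 counted most in that setting. Enzyme calls were 2 with a filter on the 6 arrays, on 24 arrays and with centred arrays, 0 by the methods' t-test, and 0 to 2 on leaving out arrays. Zymogen granule calls were 2 by the methods' t-test and 2 to 7 on leaving out arrays, with a median of 0.99 to 1.86. By that t-test 1 acinar transcription factor, 2 folding genes, 5 FGF and EGF genes and 11 immediate early genes were called. On leaving out each array in turn, 5 to 9 folding genes were called higher and 5 to 9 FGF and EGF genes and 6 to 8 duct genes lower, and medians were -0.85 to -0.75 for progenitor factors, -1.18 to -0.38 for endocrine factors, 0.030 to 0.11 for Notch, -0.085 to 0.017 for Wnt and -0.59 to -0.40 for duct genes. Medians also moved as follows, with the cause not tested. Progenitor factors had -0.88 with a filter on the 6 arrays, -0.70 with centred arrays, -0.91 with array weights and -0.64 with probe sets chosen over the 6 arrays. Endocrine factors had -1.36 with a filter on the 6 arrays, -0.36 with array weights and -0.37 over all probe sets of a gene. Notch genes had 0.15 with either filter and with centred arrays and 0.13 with array weights. Duct genes had -0.90 with either filter. FGF and EGF genes had -0.82 with a filter on the 6 arrays and -0.87 on 24 arrays. Wnt genes had -0.13 and 3 lower calls with a filter on 24 arrays and 0.024 with centred arrays. Of the named genes Egr3 alone changed sign, its other probe set differing by 0.0535. Depth has no counterpart on arrays; probe sets near the ends of the scale measure differences least well.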

Other observations

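Genes of cartilage matrix formed a group that was lower in acinar cells, in a list drawn up after the values had been seen. SOX9, with SOX5 and SOX6, drives these genes in chondrocytes. Of 17 tested genes, 11 were called lower and 2 higher in acinar cells, against 7.05% and 4.63% of all genes. Since the list followed the values, these counts are a description and not a test. Col2a1, the type II collagen gene, read 7.34, 6.21 and 7.70 in acinar arrays, against 10.81, 10.44 and 10.82 in progenitor arrays (-3.61 ± 0.29, limma adjusted p = 5.0e-12). Col9a1, a type IX collagen chain, read 8.29, 7.60 and 8.12 in acinar arrays, against 11.43, 11.31 and 11.66 in progenitor arrays (-3.46 ± 0.25). Cnmd, which encodes the cartilage glycoprotein chondromodulin, read 6.76, 6.60 and 6.45 in acinar arrays, against 10.15, 10.30 and 10.50 in progenitor arrays. Sox5 and Sox6 themselves differed by -1.71 and -1.20 and Acan, the aggrecan gene, by -1.34, while Col11a1 (1.83) and Matn4 (1.74) were the members higher in acinar cells. In E11.5 Sox9 cells Col2a1 averaged 12.25 and Col9a1 11.31 (n = 4).

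The acinar increases were also described against the populations with the highest endothelial marker levels, by a rule set after the values had been seen. Of 650 genes called higher in acinar cells without overlap of arrays, 260 had an acinar mean at least 1 unit above the means of E17.5 Beta, P0 Beta and P0 Alpha arrays, and 293 were at or below the highest of those means. Cyp2c70, a cytochrome P450, led the named enzymes of the 260, at 10.03, 10.10 and 9.66 in acinar arrays, against 6.72, 7.73 and 5.74 in progenitor arrays (3.20 ± 0.42). Gfi1, a zinc-finger repressor, read 10.68, 10.82 and 10.67 in acinar arrays, against 8.05, 9.36 and 6.70 in progenitor arrays (2.69 ± 0.49), and P2rx1, an ATP-gated channel, read 12.36, 12.31 and 12.13 in acinar arrays, against 9.79, 10.79 and 8.70 in progenitor arrays. Cyp2c70 averaged 4.07 and Gfi1 5.43 in E11.5 Sox9 cells (n = 4). Progenitor replicate 2 was the nearest progenitor array to the acinar level for 89.6% of the 260 genes, against 49.2% of all genes tested, and the median SD over these genes was 0.21 in acinar arrays and 0.48 in progenitor arrays. Egfl6, a secreted matrix protein of the same set, did not follow that order, at 9.48, 9.62 and 9.29 in acinar arrays, against 5.99, 6.34 and 6.47 in progenitor arrays.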
